A study of Mus musculus with 15 samples.

Results

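Bazedoxifene (BZA) given alone was compared with vehicle (Veh) in the liver of ovariectomized mice on a high-fat diet. The comparison used 6 of the 15 mice with liver RNA-seq in the series, 3 given BZA and 3 given Veh, and covered all 2545 genes of the deposited table. All animals were C57BL/6 females (C57BL/6J in the study's methods) that went onto a diet with 45% of its calories from fat at 8 weeks of age, had their ovaries removed at 10 weeks, and were treated for 6 weeks. BZA was dosed at 3 mg per kg and day. The Veh mice received a mixture of 43% DMSO, 15% ethanol and 42% saline and had the same surgery and diet, so they were the estrogen-deficient control and not intact animals. The other 9 mice of the fit, 3 per group, were ovariectomized and fed alike. They received 17β-estradiol (E2), conjugated estrogens (CE) at 2.5 mg per kg and day, or CE together with BZA (CE+BZA). The study's methods list E2 at 5 µg per kg and day. They also say that E2 was delivered by slow-release pellets and that CE was loaded into osmotic minipumps. Each library came from 1 mouse, and the 3 per group were drawn from 8 treated animals. BZA mice carry the labels 1, 3 and 4 and Veh mice the labels 1, 4 and 7, and values are given in that order below.

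BZA is a selective estrogen receptor modulator, a nonsteroidal ligand that occupies the same receptors as estradiol but acts as an agonist or as an antagonist depending on the tissue. It opposes estrogen in uterus and breast and protects bone, and it is combined with conjugated estrogens for that reason. Hepatocytes carry estrogen receptor α, which lowers lipid synthesis and storage in female liver. Loss of the ovaries together with a fatty diet favours steatosis, and the liver also shows strong sex differences in its cytochrome P450, sulfotransferase and secreted protein genes.

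The table gives, for every gene and mouse, a log2 value set against the gene's own median over all 15 mice. A value of 1 is therefore 2 times the median. Low values were raised to a floor, which held 2 or more mice in 1045 genes (41.1%). Every one of the 2545 genes had, in 1 or more treatments, a group mean more than 2-fold away from that of Veh, so the table is a selection and not a whole transcriptome. Counts at an unadjusted p are for that reason descriptions. The read depth is not given in the table. The BZA mice resembled each other less than the Veh mice did: the root-mean-square distance over all genes was 1.47 to 1.49 between BZA mice and 1.01 to 1.21 between Veh mice. The median SD within the group was 0.704 for BZA and 0.604 for Veh. No pair of mice had identical values (0 pairs).

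Libraries of BZA mice 1 and 3 stood apart through genes of other tissues. In BZA mouse 3, 33 genes were at least 8-fold above all of the other 14 mice, and in BZA mouse 1 there were 22 such genes. BZA mouse 4 had 0, and Veh mice 1, 4 and 7 had 0, 0 and 2. The 24 pancreatic acinar markers in the table summed to 1245 times their medians in BZA mouse 3, to 97.1 in BZA mouse 1 and to 27.8 in BZA mouse 4, against 23.3 to 43.1 in Veh. The 18 markers of bile duct, gallbladder or gut epithelium summed to 3455 in BZA mouse 1, mostly through the single gene Dmbt1. They summed to 18.8 to 33.5 in the other BZA mice and to 25.5 to 37.7 in Veh. Their mean log2 value was 1.79 in BZA mouse 1, against -0.36 to 0.28 in Veh. Adipocyte markers (10 in the table) summed to 184 in BZA mouse 3 and to 9.46 in BZA mouse 4, against 20.7 to 42.8 in Veh. For these reasons the genes described are mainly those in which all 3 BZA mice lay on one side of all 3 Veh mice. Most defining hepatocyte markers (17 of 22) are not among the genes analysed here, so the liver identity of the samples rests on the labels. In bulk liver RNA, fewer cells of a type and less RNA per cell cannot be told apart.

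No gene passed the threshold for BZA against Veh of a false discovery rate (FDR) under 0.05 together with a fold change above 2 (0 of 2545, 0.0%, limma with Benjamini-Hochberg adjustment). The smallest adjusted p was 0.102, and 40 genes had an adjusted p under 0.2. At an unadjusted limma p under 0.05, 423 genes differed, and with a fold change above 2 as well 227 were higher in BZA (8.92%) and 190 were lower (7.47%). Under quantile normalization this split was 158 higher and 218 lower. Without Veh mouse 7 the higher genes numbered 149, and without BZA mouse 4 the lower genes numbered 115. An ordinary linear model without shrinkage passed 1 gene, and a limma fit of the BZA and Veh mice alone passed 2, Klhdc9 and Gm11175. Without BZA mouse 4, limma passed 4 genes. Reg1 and Ctrb1 are acinar genes, and the others were Tmod2 and Arxes2. Without BZA mice 1 and 3 together it passed 3, Eif5a2, Zfp462 and Wisp1, with BZA mouse 4 then taken to vary like the other groups. The named genes are given because they passed in an alternative, after their values were seen. None of the differences from Veh below was thus significant after adjustment in the fit of all mice.

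Read mouse by mouse, 203 genes (7.98%) had a fold change above 2 with all 3 BZA mice above all 3 Veh mice, and 215 (8.45%) had all 3 below. Genes that met this together with the unadjusted p numbered 153 on the higher side (6.01%) and 152 on the lower side (5.97%). They are called here the genes that met both conditions. The sides were similar in size but not in make-up. Of the higher genes 24 were numbered gene models and 46 had at least 2 mice at the floor, and of the lower genes 67 and 61. Among those matched to an annotated gene, 125 of 139 higher genes (89.9%) and 78 of 124 lower genes (62.9%) were protein coding, against 79.7% of all matched genes in the table. These shares were not tested. Without BZA mice 1 and 3, chosen after seeing the data, 155 genes met both conditions on the higher side and 251 on the lower side. Without BZA mouse 4 the higher side had 252, and without BZA mouse 1 the lower side had 230.

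The higher genes with the smallest p included those of a membrane protein, secreted signals, a vitamin transporter and an immune receptor. Tmem200b, a transmembrane protein gene at chr4:131921771-131923140 (GRCm38, all positions), had log2 values of 1.64, 3.27 and 1.34 in BZA against -0.51, -0.32 and -1.03 in Veh. All 3 BZA mice were above every Veh mouse, and the difference of the means was 2.70 ± 0.59 (SE, limma unadjusted p = 0.000267, adjusted p = 0.172). The 250 bases before its start hold 1 estrogen response element half-site, GGTCA, at 53 bases before the start, in capitals here.

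Tmem200b, chr4:131921521-131921770, + strand: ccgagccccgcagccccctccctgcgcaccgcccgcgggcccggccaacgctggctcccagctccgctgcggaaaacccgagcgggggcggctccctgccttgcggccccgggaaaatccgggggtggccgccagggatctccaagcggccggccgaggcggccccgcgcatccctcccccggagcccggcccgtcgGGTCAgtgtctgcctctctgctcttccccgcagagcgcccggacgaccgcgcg

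Bmp7, which codes for a secreted growth factor of the TGF-β family (chr2:172868012-172940321), read 0.14, 1.26 and -0.0016 in BZA and -1.58, -1.48 and -2.42 in Veh, a difference of 2.29 ± 0.55 (unadjusted p = 0.000639, adjusted p = 0.181, limma). Enho, the gene of the liver peptide adropin (chr4:41638144-41640324), read -1.23, 0.84 and 0.34 against -2.18, -3.09 and -1.56. Its groups did not overlap, and BZA mouse 1 was the BZA mouse nearest to Veh. The difference was 2.25 ± 0.58. Slc52a3, a riboflavin transporter (chr2:151996511-152009258), read 1.60, 1.82 and 1.36 in BZA and -0.20, -2.02 and -0.20 in Veh, with a difference of 2.40 ± 0.59. The BZA mice lay close together and above each Veh mouse. Il12rb1, a subunit of the receptor for interleukin-12 family cytokines, read 1.24, 0.80 and 1.45 against -2.51, -0.76 and -0.071 (2.28 ± 0.68). Tbx21, the transcription factor T-bet of type 1 lymphocytes, read 0.87, 1.11 and 0.94 against -0.62, -2.02 and -0.61 (2.05 ± 0.62). In both genes the BZA mice were close to each other and 1 Veh mouse was well below the others.

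The other 6 of the 12 higher genes chosen by rank differed from Veh by 1.68 to 2.83. They were Clic3, of the chloride intracellular channel family (2.24), Slain1, a microtubule-associated protein (2.15), Mmd2 (2.31), Mcf2l (2.83), the immunoglobulin heavy chain gene Ighg2c (2.82) and the transcription factor Mypop (1.68). In Slain1 the BZA mice stood within a narrow range, 0.44, 0.49 and 0.32, and in Ighg2c they did not, 0, 3.06 and 1.05. The B and plasma cell markers, 10 in the table, summed to 8.99 to 37.1 in BZA and to 4.68 to 14.3 in Veh, and their part in the Ighg2c difference was not tested. AA986860, a clone-named gene that entered by its p alone, read 1.62, 0.29 and 0 against -1.82, -1.31 and -1.81 (2.29 ± 0.53). Leaving out each BZA and Veh mouse in turn gave differences of 2.11 to 3.07 for Tmem200b, 1.90 to 2.53 for Bmp7, 1.83 to 2.86 for Enho and 1.80 to 2.71 for Slc52a3.

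On the lower side the leading genes included lipid enzymes, Cyp3a enzymes and a female-biased plasma protein. Mogat1, which makes diacylglycerol from monoacylglycerol on the way to stored triglyceride (chr1:78510991-78538173), read 0.62, -0.19 and -0.37 in BZA and 2.31, 2.04 and 2.25 in Veh. The Veh mice were nearly equal and all 3 BZA mice were far below them, with a difference of -2.18 ± 0.50 (SE, limma unadjusted p = 0.000463, adjusted p = 0.172). Over the fits without 1 BZA or Veh mouse it ranged from -2.48 to -1.98. Lrrc19, a leucine-rich repeat membrane protein gene (chr4:94636653-94650144) on the list of epithelial markers, read -1.20, 0 and -2.09 against 1.99, 1.25 and 2.13 (-2.89 ± 0.64). Pla2g4f, a cytosolic phospholipase A2 gene (chr2:120299957-120314165), read -1.17, 0.19 and -0.20 in BZA and 2.93, 2.81 and 1.41 in Veh. BZA mouse 1 was at the floor of this gene, so the difference of -2.77 ± 0.54 (unadjusted p = 7.99e-05, adjusted p = 0.102, limma) depends on where the floor lies.

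A1bg, which codes for a plasma glycoprotein made more in female than in male mouse liver (chr15:60896859-60923012), read -2.06, -1.42 and -1.08 in BZA and 1.48, -0.05 and 0.73 in Veh, a difference of -2.24 ± 0.60 (unadjusted p = 0.00166, adjusted p = 0.182, limma). An antisense gene overlaps it, and the sources used here do not say whether reads were counted by strand. Cml3, an N-acetyltransferase-like gene, read -0.94, -1.23 and -3.16 against -0.029, 1.57 and 0 (-2.29 ± 0.66). BZA mouse 4 was the lowest in Cml3, and the groups did not overlap in either gene. Mmp12, the macrophage elastase, read -0.17, -1.63 and -0.07 against 0.43, 1.80 and 4.6 (-2.90 ± 0.84). The size rests partly on Veh mouse 7, without which it was -1.74. Cenpf, a kinetochore protein of dividing cells, read 0.60, -1.33 and -2.10 against 1.59, 1.01 and 1.35 (-2.26 ± 0.68). The water channel gene Aqp4 differed by -2.04, the ε-tubulin gene Tube1 by -1.92 and the homeobox gene Hoxa2 by -1.76. The gene model Gm11175 was at its floor in all 3 BZA mice and read 0.24, 0.37 and -1.31 in Veh (unadjusted p = 6.78e-05, adjusted p = 0.102, limma). It lies in antisense within Jund, which was higher in BZA in the mean, and reads of both genes cannot be told apart if strand was not used. No size is given for it because the BZA level is only known to be at or under the floor.

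**Figure D1:**
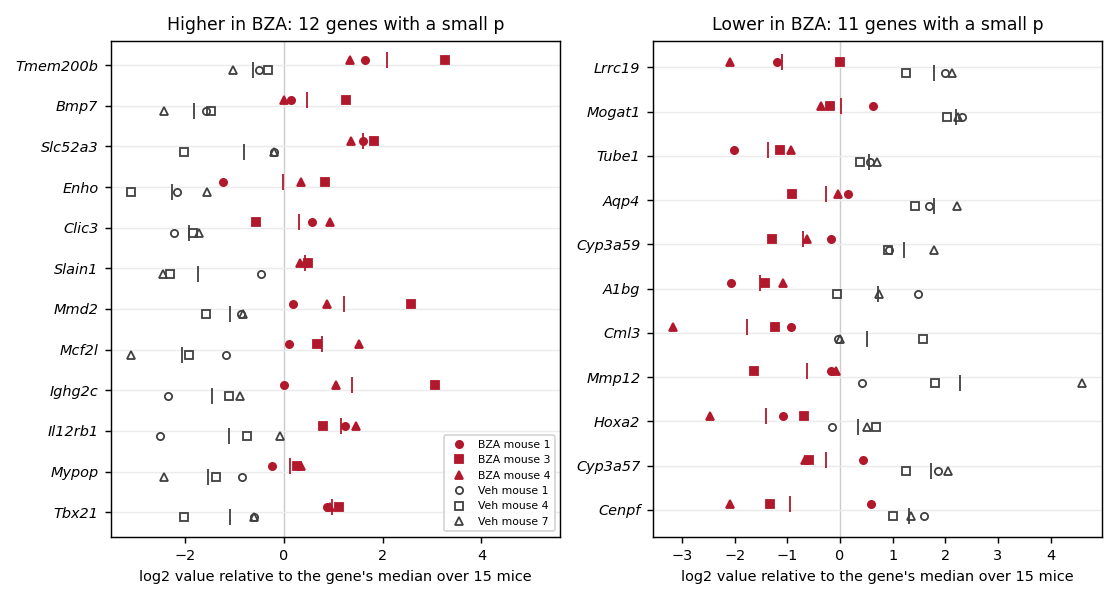
Log2 value relative to the gene's median over 15 mice, for 12 higher and 11 lower genes with a small p, in each BZA mouse (filled) and Veh mouse (open), with short bars at the group means. In every row the 3 BZA mice lie on one side of the 3 Veh mice, as the rule for choosing the genes required, and the gap between the groups is wide in Mogat1 and Slc52a3 and narrow in Enho and Mmp12.

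Genes of fatty acid oxidation and the peroxisome, most of them targets of PPARα, the receptor that switches on fat burning in fasting liver, were lower in BZA in the mean. Of the 22 that the table holds, 20 had a lower mean in BZA and 2, Aqp7 and Acsm2, a higher one. The median difference was -0.81, against 0.11 over all genes. Both conditions on the lower side were met by 5 of them (22.7%), Hao2, Cyp4a10, Cyp4a31, Cyp4a32 and Vnn1, and by 0 on the higher side, against 5.97% and 6.01% of all genes. Hao2, a peroxisomal hydroxyacid oxidase (chr3:98874521-98893239), read 1.0, -1.38 and -2.73 in BZA against 1.73, 1.44 and 2.36 in Veh (-2.88 ± 1.18, unadjusted p = 0.0261, adjusted p = 0.283, limma). BZA mouse 4 was far below, while BZA mouse 1 was near the lowest Veh mouse.

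The Cyp4a enzymes hydroxylate fatty acids at the far end of the chain. Cyp4a32 (chr4:115600969-115621602) read 0.042, 0 and -0.30 against 1.27, 0.44 and 1.52 (-1.16 ± 0.46), and Cyp4a10 (chr4:115518264-115533649) read -0.007, 0 and -0.45 against 1.43, 0.45 and 1.53 (-1.29 ± 0.52). Cyp4a31 differed by -1.05 and Cyp4a14 by -1.11. In Cyp4a10 and Cyp4a32 the BZA mice stayed under every Veh mouse, with Veh mouse 4 the nearest. These genes share sequence, so reads may have been split among them: 46.8% of the 50-base stretches of the Cyp4a32 coding transcripts occur in Cyp4a10 or Cyp4a31, and 29.8% of those of Cyp4a10 in the other two. Vnn1, the pantetheinase that releases cysteamine, read 0.21, -1.29 and 0.092 against 0.80, 0.51 and 1.14 (-1.15 ± 0.49). The peroxisomal bifunctional enzyme gene Ehhadh differed by -0.96, Pdk4, which holds back glucose oxidation, by -1.26, and the hormone gene Fgf21 by -1.32. None of these 3 met both conditions, and in Pdk4 and Fgf21 the Veh mouse 7 was as low as BZA mice. The list median was -0.58 without BZA mouse 4 and -1.11 without BZA mouse 1, the ends of its range when 1 mouse was left out. The number of its genes lower at an unadjusted p under 0.05 with a fold change above 2 was 5 in all mice. That number was 1 without BZA mouse 4, 1 without Veh mouse 1, 8 without BZA mouse 1 and 8 without Veh mouse 4. Over all 2545 genes 190 (7.47%) were lower at that p with a fold change above 2 in all mice. The number over all genes was 115 without BZA mouse 4, 190 without Veh mouse 1, 243 without BZA mouse 1 and 159 without Veh mouse 4.

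**Figure D2:**
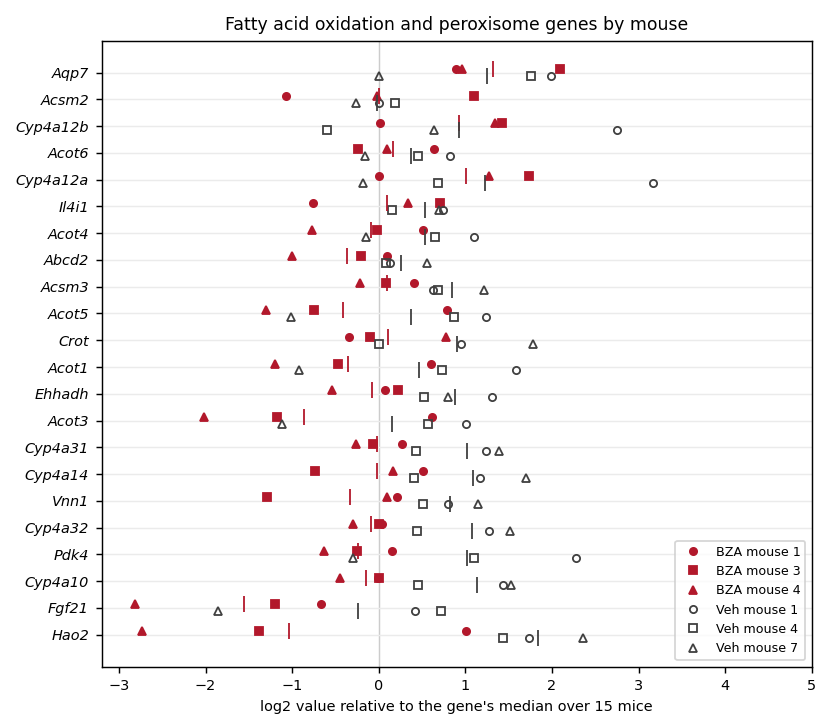
Log2 value relative to the gene's median over 15 mice for the 22 fatty acid oxidation and peroxisome genes in each BZA mouse (filled) and Veh mouse (open), ordered by the difference of the group means (short bars). In the bottom rows, such as Hao2, Cyp4a10 and Cyp4a32, the BZA mice lie left of the Veh mice, while in the upper rows, such as Aqp7 and Acsm2, the groups overlap.

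Among 19 genes of lipid uptake, synthesis and storage, 12 had a lower and 7 a higher mean in BZA (median -0.49). Both conditions on the lower side were met by 3 (15.8%, against 5.97% of all genes), Pla2g4f, Mogat1 and Elovl3. Elovl3, which elongates very long chain fatty acids, read -1.18, -0.25 and 0 against 1.03, 1.47 and 0.13 (-1.35 ± 0.54). Pparg, the master regulator of fat storage that is raised in steatotic liver, read 0, 0.17 and -0.57 in BZA and 0.77, 0.61 and 1.18 in Veh. The groups did not overlap, but the difference of -0.99 ± 0.44 (unadjusted p = 0.0391, adjusted p = 0.297, limma) was under a 2-fold change. The fatty acid transporter gene Cd36 differed by -0.88 and the synthesis gene Fasn by 0.29, and neither met both conditions. Lpin1, a phosphatidate phosphatase, was 1.67 higher in the mean. The lipid droplet genes Plin1 and Cidea were high in BZA mouse 3, at 5.11 and 3.35, the mouse with the adipocyte markers. Cfd, the adipocyte-derived complement factor D, read 0.53, 4.59 and -0.88 in BZA against 4.89, 4.55 and 3.15 in Veh, and BZA mouse 3 was as high as Veh. Its difference of -2.78 ± 1.08 (unadjusted p = 0.0196, adjusted p = 0.283, limma) became -4.37 without that mouse, and the unadjusted p was under 0.05 in 2 of 6 fits without 1 mouse.

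The cytochrome P450 families 1 to 3 clear drugs, steroids and other foreign compounds. Of 18 in the table, 11 were lower and 7 higher in the mean (median -0.33). On the lower side 3 met both conditions (16.7%, against 5.97% of all genes). Cyp3a59 (chr5:146079257-146113287) read -0.17, -1.30 and -0.63 in BZA and 0.94, 0.91 and 1.79 in Veh (-1.91 ± 0.50, unadjusted p = 0.0015, adjusted p = 0.182, limma). Cyp3a57 (chr5:145345279-145390926) read 0.43, -0.59 and -0.66 against 1.87, 1.25 and 2.05 (-2.0 ± 0.59). Both genes were lower in every BZA mouse than in any Veh mouse. The third, Cyp2c55, read 0.17, -0.67 and -0.041 against 1.33, 1.26 and 1.67 (-1.60 ± 0.52). Cyp3a57 and Cyp3a59 share 7.07% and 7.06% of the 50-base stretches of their coding transcripts, and reads from these and from nearly identical stretches may have been split between them. The 250 bases before their starts align over 247 bases with 92.3% identity, and each window holds the half-site GGTCA and further on its reverse complement TGACC, shown in capitals. Cyp4a32, from the fatty acid genes, holds 1 half-site.

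Cyp3a57, chr5:145345019-145345268, + strand: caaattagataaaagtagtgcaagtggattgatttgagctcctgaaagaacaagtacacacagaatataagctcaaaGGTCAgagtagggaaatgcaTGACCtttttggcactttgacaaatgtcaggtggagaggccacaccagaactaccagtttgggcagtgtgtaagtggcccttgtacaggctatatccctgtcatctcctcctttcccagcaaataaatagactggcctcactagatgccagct
Cyp3a59, chr5:146079008-146079257, + strand: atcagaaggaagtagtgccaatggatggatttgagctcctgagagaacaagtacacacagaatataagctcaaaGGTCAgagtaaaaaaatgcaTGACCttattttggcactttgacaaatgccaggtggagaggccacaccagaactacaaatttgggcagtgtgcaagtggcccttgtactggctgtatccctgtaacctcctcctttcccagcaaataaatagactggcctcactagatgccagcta
Cyp4a32, chr4:115600688-115600937, + strand: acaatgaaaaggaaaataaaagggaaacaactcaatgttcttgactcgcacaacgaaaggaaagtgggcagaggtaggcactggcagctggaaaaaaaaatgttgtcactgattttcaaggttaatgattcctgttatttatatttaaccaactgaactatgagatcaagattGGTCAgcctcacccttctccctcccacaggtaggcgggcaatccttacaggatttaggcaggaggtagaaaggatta

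The windows are from RefSeq on GRCm38.p6. Those printed were not chosen by a rule, all of them hold a half-site, and the windows of the other named genes are not shown. The half-sites begin 173 and 153 bases before the start in Cyp3a57, 176 and 156 in Cyp3a59, and 77 in Cyp4a32. GGTCA on either strand was in 35.2% of all 32851 promoter windows of this length, in 38.3% of the 1745 windows of genes in the table, in 38.6% of the 132 windows of the higher genes that met both conditions, and in 38.3% of the 94 windows of the lower ones. The full element GGTCANNNTGACC was in 0.0639% of all windows and in 0 of the windows of genes in the table. A match of these letters is not a binding site.

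The conjugating and other foreign-compound enzymes numbered 30, of which 20 were lower and 10 higher in the mean (median -0.45). Both conditions were met on the lower side by 2 (6.67%), the glutathione transferase gene Gsta1 and the glucuronosyltransferase gene Ugt2b37, and on the higher side by 1 (3.33%), the sulfotransferase gene Sult5a1. Gsta1 read 0.96, 0.62 and -0.17 in BZA against 1.96, 1.33 and 2.53 in Veh (-1.47 ± 0.49). It shares 44.6% of its 50-base stretches with Gsta2, which differed by -0.75. Ugt2b37 read 0.10, -0.49 and -0.58 against 0.43, 0.98 and 1.27 (-1.22 ± 0.55), and Sult5a1 read -1.30, 0 and 0.019 against -1.95, -1.68 and -2.26 (1.53 ± 0.57). In all 3 genes BZA mouse 1 was the nearest to Veh. The list was thus mixed, with shares near the 5.97% and 6.01% over all genes.

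Of 23 liver genes known to be higher in females, 18 were lower and 5 higher in BZA (median -0.63), and of 21 known to be higher in males 16 were higher and 5 lower (median 0.80). Both conditions were met on the lower side by 2 female-biased genes, Hao2 and A1bg (8.7%), and 2 male-biased genes, Keg1 and Elovl3 (9.52%), and on the higher side by 1 male-biased gene, Serpine2 (4.76%). These shares are near the 5.97% and 6.01% over all genes. Keg1, a glycine N-acyltransferase-like gene, read -0.47, 0.10 and -0.59 in BZA against 0.54, 0.51 and 1.27 in Veh (-1.09 ± 0.46). Serpine2, a secreted protease inhibitor, read 0.53, 0.76 and 0.42 against -0.20, -0.51 and -0.90 (1.10 ± 0.50). The major urinary protein genes Mup1, Mup12, Mup16 and Mup20 differed by 0.56 to 0.67 and share much of their sequence. The female-biased Cyp3a44 was 0.68 higher in the mean.

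Of 9 estrogen receptor genes and canonical target genes in the table, 6 were higher and 3 lower in the mean (median 0.65). On the higher side 2 met both conditions (22.2%, against 6.01% of all genes). Rasd1, a small GTPase gene that also responds to glucocorticoids, read 1.42, 0.75 and 0.81 in BZA against 0, -0.31 and -2.48 in Veh (1.92 ± 0.70, unadjusted p = 0.0146, adjusted p = 0.283, limma). Greb1, an early estrogen target and receptor cofactor (chr12:16670615-16800886), read 0.89, 2.09 and 0.97 in BZA and was at its floor in all 3 Veh mice, so only a minimum of the difference is known and no size is given. It was at the floor in 11 of the 15 mice. The target genes Ltf and Tff1 differed by 0.075 and 0.65, and neither met both conditions.

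Secreted signals of the liver were mostly higher. Of 13 hepatokine and related genes 10 had a higher mean in BZA (median 0.85, against 0.11 over all genes). Both conditions on the higher side were met by 4 (30.8%, against 6.01% of all genes), Bmp7, Enho, Fst and Igfbp5. Fst, the activin-binding protein follistatin, read 0.96, 0.99 and 0 in BZA against -1.80, -0.81 and -0.97 in Veh (1.84 ± 0.58, unadjusted p = 0.00555, adjusted p = 0.221, limma). Igfbp5, which binds insulin-like growth factors, read -0.19, 1.65 and 0.17 against -0.84, -0.75 and -1.98 (1.73 ± 0.69). The stress-induced Gdf15 differed by 1.44. The 3 members lower in the mean were Fgf21 (-1.32), the hepcidin gene Hamp2 (-0.86) and Ereg (-0.41). In each fit without 1 mouse 10 of the 13 had a higher mean, with list medians of 0.54 to 1.27.

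The 5 hepatocyte marker genes in the table were all higher in the mean (median 1.21). The other 17 of the 22 listed are absent. The table holds only genes more than 2-fold from Veh in some treatment, so the counts here do not describe hepatocyte markers as a whole. Both conditions on the higher side were met by 4 (80%, against 6.01% of all genes), Sds, Glul, Ass1 and Pck1. They act in amino acid and glucose metabolism: Sds breaks down serine, Glul makes glutamine next to the central vein, Ass1 belongs to the urea cycle, and Pck1 drives gluconeogenesis. Pck1 read 0.48, 0.67 and -0.28 in BZA and -0.91, -0.36 and -1.73 in Veh (1.29 ± 0.55). Glul read -0.026, 0.14 and 0.31 against -0.46, -0.58 and -2.02 (1.16 ± 0.47). Sds differed by 1.21 ± 0.48 and Ass1 by 1.30 ± 0.54. In each of the 4 genes the 3 BZA mice were above the 3 Veh mice. Summed, the 5 genes reached 5.85 to 7.52 times their medians in BZA and 2.25 to 3.75 in Veh. The other treatments were above Veh too, with 4.51 to 5.04 in E2, 3.91 to 5.77 in CE and 6.21 to 9.82 in CE+BZA. Without Veh mouse 7, 1 of these 5 genes was higher in BZA at an unadjusted p under 0.05 with a fold change above 2. So were 149 of all 2545 genes. Among 9 genes of glucose metabolism 6 were higher in the mean (median 0.29). Beside Pck1 and Sds, G6pc differed by 0.12, and the glycogen-targeting subunit gene Ppp1r3g had the largest difference, -1.95 ± 1.15, with values of 1.36, -5.11 and -1.98 against 0.22, 0.013 and -0.12.

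The solute carriers, which move nutrients, ions and drugs across membranes, made up the largest of the lists with 60 genes. Of these 43 were higher and 17 lower in the mean (median 0.83). Both conditions were met on the higher side by 9 (15%, against 6.01% of all genes). On the lower side 1 met them (1.67%, against 5.97%), Slc28a1. Slc34a2, a phosphate carrier, read 0.85, 2.68 and 0.65 in BZA against 0, -0.55 and -2.58 in Veh (2.44 ± 0.86). The zinc transporter Slc30a2 read 0.93, 1.14 and 0.60 against -0.95, -0.78 and -0.95, with 2 Veh mice at the floor. The nucleoside transporter Slc28a1 read -0.27, 0 and -0.24 against 1.67, 1.61 and 1.39 (-1.72 ± 0.60), and the mice of each group lay close together. In the mean, the citrate carrier Slc13a5 was 1.71 higher, the amino acid carrier Slc7a5 1.41 and the organic anion carrier Slc22a7 1.56. Without Veh mouse 7 the carriers higher at an unadjusted p under 0.05 with a fold change above 2 numbered 3 of 60, against 11 with it. Over all 2545 genes 149 were higher in that way without Veh mouse 7 and 227 (8.92%) with it.

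Immediate early genes, which respond within minutes to hormones and to handling, were higher in 12 of 13 in the mean (median 0.98). Both conditions on the higher side were met by 4 (30.8%, against 6.01% of all genes), Junb, Csrnp1, Jund and Ier2. Junb read -0.20, 0.066 and 0.91 in BZA against -0.33, -0.85 and -1.34 in Veh (1.10 ± 0.48), and Ier2 read 0.0084, 0.50 and 0.33 against -0.96, 0 and -1.34 (1.04 ± 0.48). Fos differed by 0.98 and Egr1 by 1.19, and neither met both conditions. Arc was the 1 member with a lower mean (-1.25). Without Veh mouse 7, and also under quantile normalization, 0 of the 13 were higher at an unadjusted p under 0.05 with a fold change above 2. Over all 2545 genes the numbers were 149 without Veh mouse 7 and 158 under quantile normalization. All 9 circadian clock genes in the table had a higher mean (median 0.82), and 0 met both conditions. Npas2 had the largest difference, 1.26 ± 0.80, with values of 0.78, -0.34 and 2.03 against 0.89, -1.11 and -1.11. The time of day of sampling is not given in the sources used here.

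Acute phase and stress genes were higher in the mean in 22 of 26 (median 1.01), and 2 met both conditions (7.69%), near the share over all genes. Gpx3, the plasma glutathione peroxidase, read 0.36, 0.50 and 0.76 in BZA against -0.50, -0.39 and -0.65 in Veh (1.05 ± 0.45). Itih3, which stabilises extracellular matrix, read -0.62, 0.54 and 1.27 against -1.07, -0.72 and -0.80 (1.26 ± 0.57). The classical reactants rested on 1 animal: Saa1 read 0, 0.16 and 4.27 in BZA and -1.62, -0.27 and 0.72 in Veh, and Lcn2 read -0.41, 1.0 and 3.67 against -1.82, -0.34 and 0.94, with BZA mouse 4 the highest of the 6. The list median was 0.42 without BZA mouse 4. The asparagine synthetase gene Asns had the largest difference of the list, 2.23 ± 0.98, with values of 1.30, 3.44 and -0.027 against -1.58, -0.40 and 0. Of 10 complement and coagulation genes 8 were higher in the mean (median 1.01). Both conditions on the higher side were met by 1 (10%, against 6.01% of all genes), Serpine2. C8b, a subunit of the membrane attack complex, differed by 1.58 ± 0.72, and C3 by 0.97.

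Immune signalling genes were divided. Of 39 chemokine, interleukin and receptor genes 25 were higher and 14 lower in the mean (median 0.42), with 3 meeting both conditions on the higher side (7.69%), Il12rb1, Il17ra and Il1rl1, and 1 on the lower (2.56%), Ccl22. The first share is near the 6.01% over all genes and the second is below the 5.97%. Il17ra, a subunit of the interleukin-17 receptor, read 0.099, 0.90 and 1.13 in BZA against -0.21, -0.65 and -1.65 in Veh (1.55 ± 0.56). Il1rl1, the receptor for interleukin-33, read 1.47, 1.77 and 1.55 against 0, 0 and 0.99 with 2 Veh mice at the floor. Ccl22, a macrophage and dendritic cell chemokine, read 0.59, 0.24 and -0.56 against 1.21, 1.65 and 2.06 (-1.55 ± 0.58). In these genes no BZA mouse overlapped a Veh mouse. T and NK cell markers (7 in the table) summed to 6.97 to 9.40 in BZA and 4.48 to 7.92 in Veh. Of these 7, Tbx21 alone met both conditions on the higher side, as above (14.3%, against 6.01% of all genes). The NK receptor gene Klrd1 alone met them on the lower side (14.3%, against 5.97%), with -0.23, -2.16 and -0.34 against 0.24, 0.013 and 1.5 (-1.49 ± 0.57). Macrophage markers (6) summed to 6.89 to 13.3 in BZA and 5.71 to 32.5 in Veh. Beside Mmp12, Trem2 of lipid-associated macrophages read 0.84, 0.69 and 1.29 against -0.81, 0.062 and 0.44 (1.04 ± 0.49). Of 4 interferon-related genes 3 were lower in the mean (median -1.02) and 0 met both conditions. Gbp1 read 0.011, -1.42 and -2.18 against 0, 0.068 and 1.06. Neutrophil markers (13) summed to 11.3 to 21 in BZA and 10.6 to 14.4 in Veh.

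Matrix and proliferation genes showed little common direction. Of 37 extracellular matrix genes 17 were higher and 20 lower in the mean (median -0.05). The collagen gene Col6a5 (1.69) met both conditions on the higher side (2.7%, against 6.01% of all genes) and Mmp12 on the lower (2.7%, against 5.97%). Of 12 cell cycle genes 6 were higher and 6 lower (median 0.01). Cenpf alone met both conditions, on the lower side (8.33%, against 5.97% of all genes). Among 6 cholesterol and bile acid genes 4 were lower in the mean (median -0.23) and 0 met both conditions. Cyp7a1, the rate-limiting enzyme of bile acid synthesis, differed by -0.026, and Cyp46a1, a cholesterol hydroxylase, by -0.94.

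**Figure D3:**
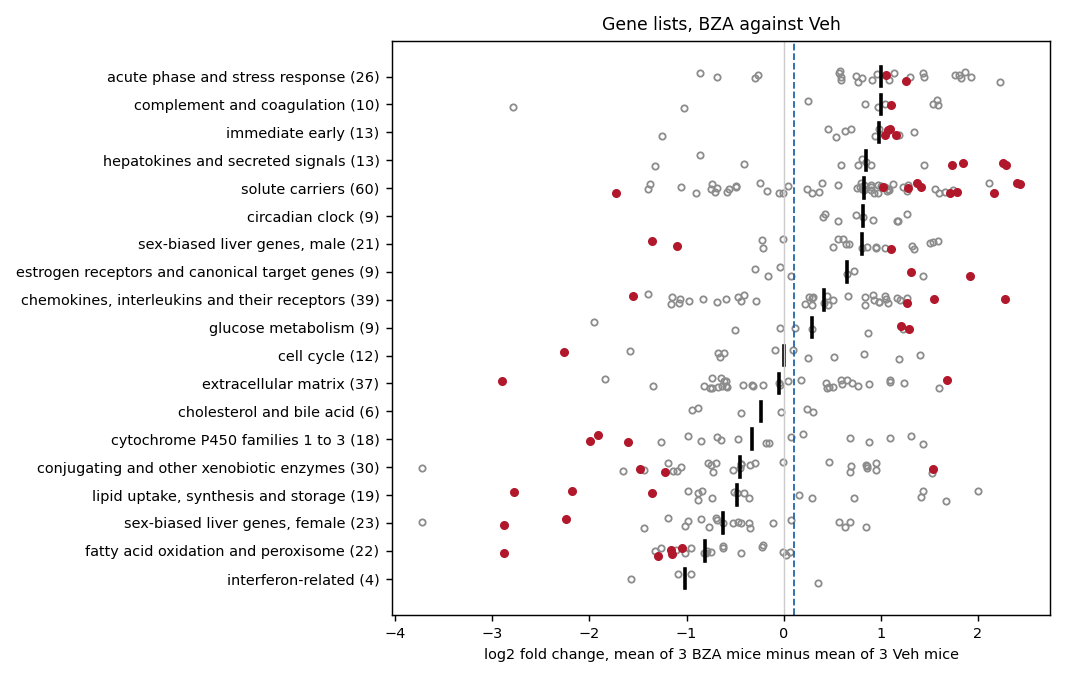
Log2 fold change, mean of 3 BZA mice minus mean of 3 Veh mice, of each member of 19 function lists, ordered by list median (black bar), with the number of members in the table in brackets. Red points met both conditions, and the dashed line is the median over all 2545 genes (0.11). The fatty acid, female-biased, lipid and foreign-compound lists lie left of that line and the hepatokine, immediate early, acute phase and solute carrier lists right of it.

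Markers of cells other than hepatocytes were often higher in BZA, and not in the same animals. All 24 acinar genes had a higher mean in BZA (median 1.88), but 1 (4.17%, against 6.01% of all genes), Cela2a, met both conditions. The mean log2 value of these markers was -0.02 to 0.16 in E2, 0.02 to 0.14 in CE and 0.04 to 0.27 in CE+BZA, near Veh. The table holds only genes more than 2-fold from Veh in some treatment. The 24 of 24 and the median are thus not independent of how the table was selected. Ctrb1, a chymotrypsinogen gene, read 4.64, 7.02 and 0 in BZA and was at the floor in all 3 Veh mice, as were Reg1 and the pancreatic lipase gene Pnlip. The mucin-like Dmbt1 read 11.73, 3.85 and 0 in BZA, highest in mouse 1, and was at the floor in Veh, and the keratin gene Krt19 read 2.99, 0.43 and -0.45 against -0.45, 0.62 and -1.06. The adipokine gene Adipoq read 0.89, 5.52 and 0 in BZA, highest in mouse 3, and was at the floor in Veh. Of the 18 epithelial markers, 1 met both conditions on the higher side (5.56%, against 6.01% of all genes). This was the trefoil factor gene Tff3, with 0.53, 1.06 and 1.80 against -2.17, -2.17 and -1.17. On the lower side 3 met them (16.7%, against 5.97%). These were the keratin gene Krt23 (-2.41), the intestinal fatty acid binding protein gene Fabp2 (-1.19) and Lrrc19.

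Other marker lists were higher in more than 1 BZA mouse. Stellate cell, fibroblast and smooth muscle markers (8) summed to 12.2 to 60.1 in BZA against 6.77 to 10.2 in Veh. Both conditions on the higher side were met by 3 (37.5%, against 6.01% of all genes), Actg2, Acta2 and Clec3b. Acta2, the smooth muscle actin of vessels and activated stellate cells, read 2.91, 0.59 and 0.42 in BZA against -0.75, -0.33 and -0.57 in Veh (1.86 ± 0.85). Mesothelial markers (6) summed to 4.79 to 20.6 against 2.39 to 4.90, with the lowest BZA mouse under the highest Veh mouse. Both conditions on the higher side were met by 2 (33.3%, against 6.01% of all genes), Upk3b (1.92) and Igfbp6 (2.51). Erythroid markers (11) summed to 11.7 to 35.4 against 7.18 to 12.6. The hemoglobin genes Hba-a1 and Hba-a2 were 1.55 and 1.57 higher in the mean and share 67.5% of the 50-base stretches of Hba-a1. Trim10, a gene of red cell precursors, read 0.72, 3.1 and 1.77 in BZA and was at the floor in all 3 Veh mice. The single endothelial marker in the table, Wnt9b, read -0.023, 1.40 and -0.07 against -1.18, 0 and -0.043, the 2 skeletal muscle markers summed to 1.65 to 2.94 against 1.43 to 1.76, and 0 of 9 islet markers were in the table. The part that these cells had in the other gene lists was not tested.

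**Figure D4:**
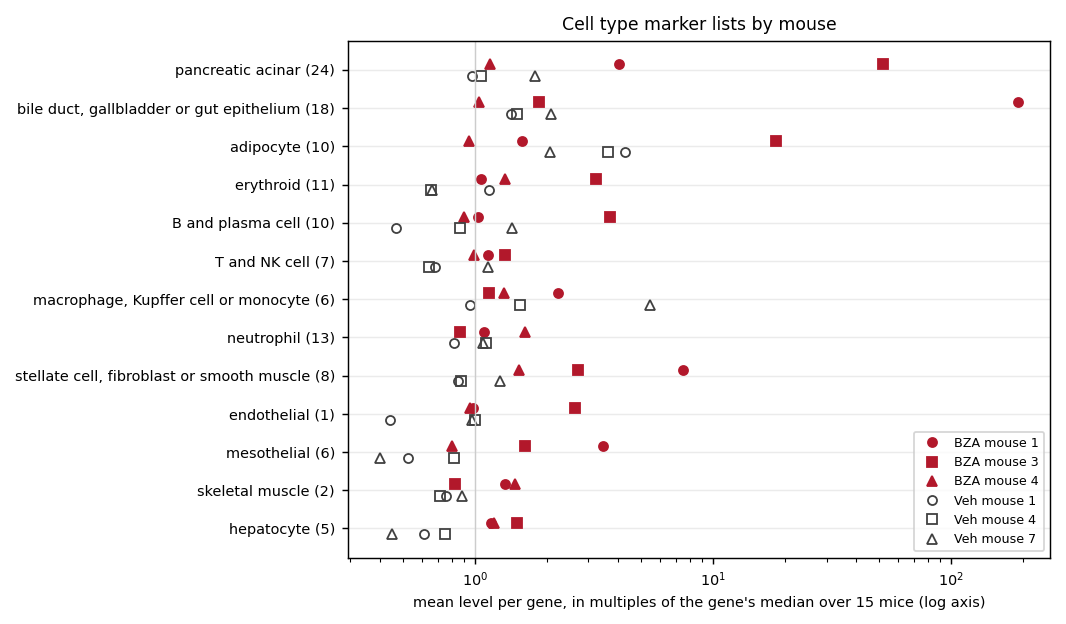
Mean level per gene of each cell type marker list, in multiples of the gene's median over 15 mice on a log axis, in each BZA mouse (filled) and Veh mouse (open), with the number of genes in brackets. BZA mouse 3 lies far right for acinar and adipocyte markers and BZA mouse 1 for epithelial markers, the latter mostly through Dmbt1. The hepatocyte and stellate lists separate all 3 BZA mice from all 3 Veh mice.

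BZA was then compared with the other receptor ligands. The doses differ in unit and size between compounds, and E2 was delivered by pellet and CE by minipump. These are thus comparisons of the treatments as given and not of matched doses or routes. The p-values were adjusted within each of the 3 comparisons. Between BZA and E2, 7 of 2545 genes (0.275%) passed at the same FDR and fold change (limma), all 7 lower in BZA. A1bg had a mean of -1.52 ± 0.50 (SD, n = 3) in BZA, 4.51 ± 0.45 in E2 and 0.72 ± 0.77 in Veh. The BZA minus E2 difference was -6.03 ± 0.60, with an adjusted limma p of 4.29e-05. The others were the adipokine serpin gene Serpina12 (-3.51 ± 0.50, adjusted p = 0.00316), the female-biased P450 gene Cyp3a44 (-4.22 ± 0.65, 0.00514), Cml3 (-3.67 ± 0.66, 0.0187), Gm11175 (at the floor in BZA, 0.0187), the fatty acid binding protein gene Fabp5 (-3.33 ± 0.63, 0.0257) and Gm4477 (-3.86 ± 0.77, 0.0421), all by limma. Of these, A1bg, Cml3, Gm11175 and Gm4477 also met both conditions on the lower side against Veh, while Cyp3a44 and Serpina12 differed from Veh by 0.68 and -1.06. Without BZA mice 1 and 3 together 0 genes passed against E2, without BZA mouse 3 there were 2, without Veh mouse 7 there were 3, and without BZA mouse 4 there were 17. At an unadjusted p under 0.05 with a fold change above 2, 163 genes were higher and 119 lower in BZA than in E2.

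Between BZA and CE 0 genes passed (limma, smallest adjusted p 0.131, and 0 by the ordinary linear model), with 145 higher and 141 lower in BZA at an unadjusted p under 0.05 and a fold change above 2. Without BZA mouse 1 there were 3 and without BZA mouse 4 there were 6. Between BZA and CE+BZA 0 genes passed (limma, smallest adjusted p 0.267, and 0 by the ordinary linear model), with 113 higher and 110 lower at the unadjusted p, and 2 passed without BZA mouse 4. These counts do not show that the treatments acted alike. For the genes that met both conditions against Veh, the median difference from Veh was 1.49 in BZA, 1.12 in CE+BZA, 0.82 in CE and 0.69 in E2 on the higher side, and -1.53, -1.06, -0.90 and -0.93 on the lower side. All 4 differences share the same Veh mice, and the genes were chosen on the BZA values, so these medians are a description.

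Single genes took different courses over the groups. Tmem200b had means of 2.39 ± 0.29 (SD) in CE+BZA, -0.53 ± 1.02 in E2 and -0.21 ± 0.28 in CE, beside 2.08 ± 1.04 in BZA and -0.62 ± 0.37 in Veh, so both groups with BZA were high. Its BZA minus E2 difference was 2.61 ± 0.59 and its BZA minus CE+BZA difference -0.31 ± 0.59. A1bg was low in both groups with BZA, at -1.41 ± 0.99 in CE+BZA and 0.76 ± 0.75 in CE. Mogat1 was below Veh in every treatment, with -0.21 ± 0.69 in E2, -0.56 ± 0.66 in CE and -0.17 ± 0.18 in CE+BZA, and Enho was above it, with 0.48 ± 0.43, 1.5 ± 0.55 and -0.79 ± 0.06. Bmp7 was likewise above Veh in E2 (-0.42 ± 0.66), CE (-0.083 ± 0.15) and CE+BZA (1.14 ± 0.80). Pla2g4f was at its floor in all 3 CE+BZA mice and had a mean of 1.44 ± 0.41 in E2.

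**Figure D5:**
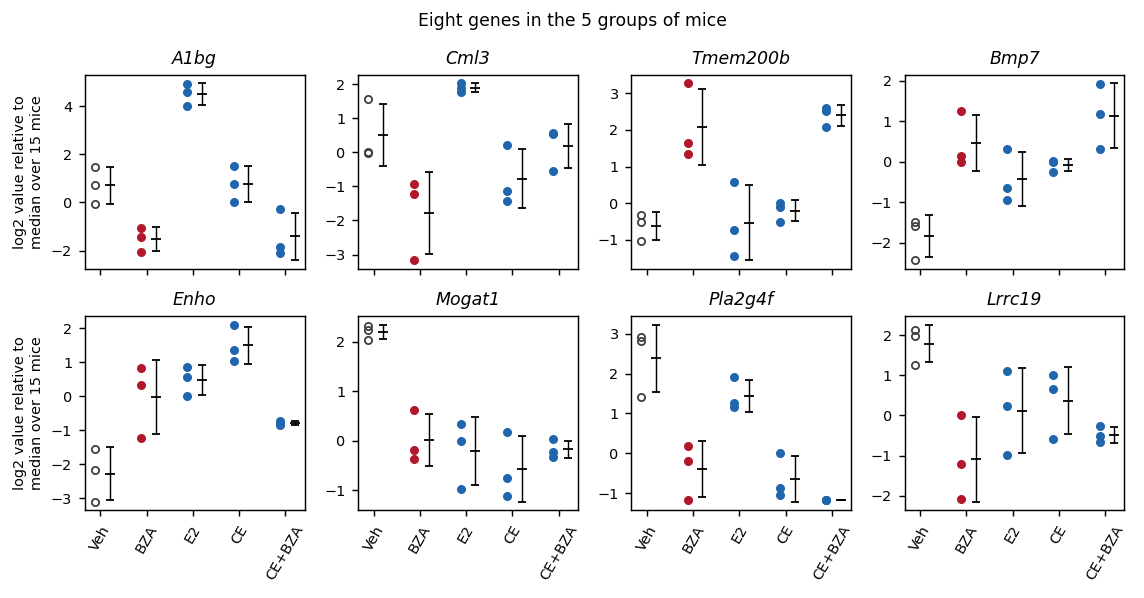
Log2 value relative to the gene's median over 15 mice for A1bg, Cml3, Tmem200b, Bmp7, Enho, Mogat1, Pla2g4f and Lrrc19 in the 3 mice of each of the 5 groups, with the mean and SD beside the points. Tmem200b is high and A1bg low in BZA and CE+BZA, while Mogat1 is highest and Enho lowest in Veh.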

How the data were processed

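Liver RNA from 15 mice, 3 per group, was sequenced, and 1 table of 2545 genes was used. The authors mapped the reads with TopHat, quantified genes with StrandNGS including partial reads and new gene models, applied DESeq normalization, and deposited log2 values relative to the median of each gene, with low values raised to a floor. The submitters' processing notes name CASAVA 1.8.2, TopHat2 0.5, DESeq and the builds mm10 and hg19. The filter behind the 2545 genes is not given in the sources used here, and the labels and the paper differ on single or paired ends and on the number of samples per group. Columns were matched to mice by name (0 left unmatched). The read depth is not given, so no counting intervals were computed.

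The values were used as deposited. A linear model with 5 group means was fitted to all 15 mice with limma 3.58.1 in R 4.3.3, so that all groups share 1 estimate of the spread. The Benjamini-Hochberg adjustment ran across all 2545 genes in each contrast, and passing required an FDR under 0.05 together with a fold change above 2. Because 0 genes passed against Veh, genes were also counted at an unadjusted p under 0.05, by all 3 BZA mice lying beyond all 3 Veh mice, and by both together. Samples are separate animals. The model was run on simulated normal values with 1 spread per gene for all groups. That simulation had no floor and no mice with genes of other tissues, so it does not test the model under those conditions. Tables and sequences were handled with Python 3.11.15, pandas 2.3.3, numpy 2.4.6 and Biopython 1.88.

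Named genes were the 12 per direction with the smallest p among those meeting both conditions, with a gene symbol and at most 1 mouse at the floor, the 3 per direction without those last limits, genes that the study discusses, the members of each list that met both conditions (up to 4 by p) or had the largest change, the leading markers in BZA mice 1 and 3, and the genes that passed against E2. Some genes the rule selects are not reported here. Other genes are named as further list members, after their values were seen. The genes, lists and tests were chosen with earlier results of these data known. Gene lists are described by counts and medians, without a set test. Positions are from the GRCm38 annotation and promoter windows from RefSeq, by symbol (2164 of 2524 symbols matched a position). Alternatives were quantile normalization, centring, leaving out genes at the floor, other variance models, a replicate block, only 2 groups, and each BZA or Veh mouse left out in turn.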

Additional observations from a re-analysis of the deposited data

How the results depend on the processing

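The depth is not given, and the 1045 genes with 2 or more mice at the floor carry the least certain sizes. The number passing against Veh was 0 in the main model, 1 without shrinkage of the variances, 2 with only the BZA and Veh mice, 0 to 4 when 1 mouse was left out, and 3 without BZA mice 1 and 3 together, an alternative chosen after seeing the data. Higher genes at the unadjusted p with a fold change above 2 numbered 149 to 331 and lower genes 115 to 243 with 1 mouse left out. Genes with all 3 BZA mice above Veh numbered 245 to 390 with 1 mouse left out and 415 without BZA mice 1 and 3, and genes below numbered 242 to 363 and 582, or 133 without genes at the floor in 2 or more mice. Fewer mice make it easier for groups not to overlap. Both conditions were met by 133 to 252 higher and 110 to 230 lower genes with 1 mouse left out, by 251 lower genes without BZA mice 1 and 3, and by 101 lower genes without floor genes, where 1500 genes were tested. Against E2, 14 genes passed under quantile normalization, 13 without floor genes, 12 with a mean-variance trend, 2 without shrinkage, 2 to 17 with 1 mouse left out and 0 without BZA mice 1 and 3. Against CE 0 to 6 and against CE+BZA 0 to 2 passed with 1 mouse left out. The cause of these changes was not tested except where stated. Without BZA mice 1 and 3, which left 1 BZA mouse, the differences of Retn (-0.39), Upk1b (-0.39), Krt19 (-0.16) and Ighg2b (-0.14) were negative. They were positive in all 6 fits without 1 mouse, at 0.35 to 3.01, 0.99 to 2.98, 0.29 to 2.01 and 0.42 to 2.39. Of 74 named genes that met both conditions, 36 kept an unadjusted limma p under 0.05 in all 6 fits without 1 mouse. Their direction could not change in these fits, because all 3 BZA mice already lay beyond all 3 Veh mice.

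Mouse numbers 1 and 4 occur in both groups but belong to different animals, and mice with the same number did not deviate together (r = -0.049 for number 1 and -0.040 for number 4, across genes). With a replicate block the higher genes numbered 88, the lower genes 113, and 1 gene passed against E2.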
